A study of Mus musculus with 6 samples.

Results

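The p53 target genes are the genes that the transcription factor p53 switches on when DNA is broken, growth signals run too high or ribosomes fail to assemble. They were taken as a list of 40 gene symbols, p53's own gene Trp53 included, of which 39 were found among the 13283 genes of the deposited table; Perp was not analysed here. The list was drawn up with the values of these libraries already known, so the differences and calls below describe its members and are not independent evidence about them. RNA-seq libraries came from a mouse brown preadipocyte (BAT) line, immortalized and differentiated in culture, 3 from MICT1 KO cells, labelled MICT1-CRISPR KO, and 3 from control cells, labelled WT. The control cells carried Cas9 and a scrambled sgRNA (Scr), and the KO cells carried Cas9 and an sgRNA against MICT1, the gene of a microprotein of brown fat. All cells were treated with 10 µM forskolin, an activator of adenylyl cyclase, for 6 h on day 6 of differentiation. The KO cells were pools rather than clones, made with more than 1 sgRNA, and the labels do not say which pool each library came from. The sources used here do not state how the line was immortalized, and the allele of Trp53 that it carries is not given. Nothing in the labels says that the 3 libraries of a group came from separate cultures, so p-values measure the spread between these libraries.

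Textbook p53 biology frames the list. The p53 protein is made continuously and destroyed as fast, because Mdm2, itself a p53 target, tags it for the proteasome, and Mdm4, a relative of Mdm2, masks its activating domain. When a stress signal breaks this loop, p53 accumulates and raises genes that halt the cell cycle, above all the cyclin-dependent kinase inhibitor gene Cdkn1a, genes that prime the cell for apoptosis, genes of DNA repair, and the genes of its own inhibitors. In adipose tissue p53 is known for its part in differentiation and in the senescence that comes with obesity.

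A p53 binding site is built of decamers with a shared core, and these were searched in the promoter windows that RefSeq gives for mouse genes (GRCm38.p6, 250 bases before to 50 after an annotated start; the decamer reads the same on both strands, so 1 search covers them). Windows were found for 31 of the 40 symbols, and 12 of the 31 genes (38.7%) had a p53 decamer in at least 1 window, against 8.12% of the 9995 tested genes with a window and 9.55% of all 27025. The 12 were Aen, Bax, Ccng1, Cdkn1a, Ckap2, Ei24, Gadd45a, Mdm2, Pml, Polk, Sesn1 and Trp53. Plk2, Gdf15, Eda2r and Bbc3, which had the largest rises among the members with a window, had no decamer in any of theirs. Among the members, only Cdkn1a had 2 decamers with at most 13 bases between them, an arrangement found in 0.06% of the tested genes with a window. The shared decamers are a description of these windows, not evidence of binding, and many known p53 sites lie outside them. The bases before the start site of 5 of these genes are printed, namely 3 targets that were higher in KO cells (Mdm2, Ccng1 and Ckap2), Cdkn1a, which was not called, and Trp53 itself, with each p53 decamer in capitals, 5′ to 3′ on the strand of the gene and in GRCm38.p6 coordinates:
Mdm2, chr10:117710759-117711008, minus strand: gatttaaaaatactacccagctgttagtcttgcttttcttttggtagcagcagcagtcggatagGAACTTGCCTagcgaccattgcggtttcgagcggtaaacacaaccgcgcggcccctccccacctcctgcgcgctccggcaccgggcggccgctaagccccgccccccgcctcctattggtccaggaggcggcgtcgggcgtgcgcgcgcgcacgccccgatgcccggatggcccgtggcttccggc
Ccng1, chr11:40755287-40755536, minus strand: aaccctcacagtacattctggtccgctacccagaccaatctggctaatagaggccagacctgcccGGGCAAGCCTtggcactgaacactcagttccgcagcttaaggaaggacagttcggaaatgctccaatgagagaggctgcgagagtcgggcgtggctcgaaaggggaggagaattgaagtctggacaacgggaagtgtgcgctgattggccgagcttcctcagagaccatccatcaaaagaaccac
Ckap2, chr8:22185820-22186069, minus strand: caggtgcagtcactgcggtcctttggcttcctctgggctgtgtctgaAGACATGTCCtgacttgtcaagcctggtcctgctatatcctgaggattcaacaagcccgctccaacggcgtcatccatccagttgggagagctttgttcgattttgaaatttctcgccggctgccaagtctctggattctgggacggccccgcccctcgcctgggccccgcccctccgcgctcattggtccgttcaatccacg
Cdkn1a, chr17:29090729-29090978, plus strand: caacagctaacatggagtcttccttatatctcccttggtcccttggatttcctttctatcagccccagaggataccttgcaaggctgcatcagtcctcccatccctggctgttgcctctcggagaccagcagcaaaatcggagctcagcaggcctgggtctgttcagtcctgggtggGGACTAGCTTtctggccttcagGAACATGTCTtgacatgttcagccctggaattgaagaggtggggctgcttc
Trp53, chr11:69580109-69580358, plus strand: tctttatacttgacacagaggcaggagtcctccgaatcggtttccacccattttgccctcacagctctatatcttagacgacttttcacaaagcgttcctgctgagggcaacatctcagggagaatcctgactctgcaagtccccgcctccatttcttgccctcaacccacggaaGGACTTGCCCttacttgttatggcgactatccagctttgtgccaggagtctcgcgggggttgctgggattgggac
In the printed window of Cdkn1a the decamers began at -73 and -51 from its start, and in that of Trp53 at -75. Only exact matches were marked. The bases tgacatgttc, directly after GAACATGTCT in the window of Cdkn1a, miss the pattern in their opening base alone and were not counted. In those of Mdm2, Ccng1 and Ckap2 they began at -186, -185 and -203. The window of another annotated start of Cdkn1a, chr17:29093519-29093818, held no decamer. Closer to an annotated start lay GGGCATGCCC of Ei24 at -10, GGGCTTGTCC of Aen at 11 (-121 from another annotated start) and GGGCTAGCCC of Gadd45a at -40.

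The deposited values are a normalized signal, read as the estimated reads of each gene after division by a size factor, and the estimated depth ran from 15450000 to 17920000 reads per library. The groups were set against each other on the log2(value + 1) scale by limma-trend over the 12507 genes that reached 10 in 3 or more libraries, so a fold change understates the change of a gene with low values. MICT1 was not analysed here, and the KO label was therefore not checked on its target. All 8 markers listed for adipocytes (Adipoq, Fabp4, Plin1, Cidec, Pparg, Lpl, Cebpa and Ucp1) were lower in MICT1 KO cells, and together they made up 0.717% to 0.864% of the values of a Scr library and 0.0881% to 0.127% of those of a KO library. Adipoq itself stood at 733, 468 and 672 in the Scr and 7.63, 3.16 and 5.18 in the KO libraries, and Ucp1, the uncoupling protein that defines brown adipocytes, at 20.8, 24.1 and 30.5 in the Scr and 1.91, 1.05 and 9.33 in the KO libraries, so the defining gene of the label brown adipocytes was low in both groups. Of 8 preadipocyte and fibroblast markers 7 were in the table and 6 tested, 3 higher and 2 lower. The 7 made up 0.223% to 0.259% of the values of a Scr library and 0.306% to 0.326% of those of a KO library. That rise lay mainly in Col1a1 (means of 17955 in Scr and 30595 in KO). Pdgfrb and Ly6a were also called higher, whereas Dlk1 (687 in Scr and 63.9 in KO) and Pdgfra (2307 and 2025) were called lower. Col3a1 was not called (16430 and 15855). Of 8 macrophage and leukocyte markers 4 were in the table, of 6 endothelial markers 1 (Cdh5) and of 6 skeletal muscle markers 2 (Acta1 and Des), with Cd14 the highest among them (means of 192 in Scr and 444 in KO). Ptprc, Adgre1, Itgam and Lyz2 were not among those found. Since these are bulk libraries, fewer cells of a type and less RNA per cell cannot be told apart, and whether the state of differentiation moved the p53 targets was not tested.

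Of the 39 p53 target genes, 28 were higher in MICT1 KO cells with an adjusted p under 0.05, in a comparison in which 28.5% of all tested genes were called higher. Mdm4 and Ddit4 were lower, where 28.3% of all genes were, and 9 did not pass, so 30 were called in either direction, where 56.9% of all genes were. Each of the 18 members that passed with a change of at least 2-fold was higher, against 7.99% of all genes higher and 5.76% lower at that fold. The values of the KO libraries lay outside the range of the Scr libraries for 32 members, as for 62.0% of all genes, above it for 29 (30.9% of all genes) and below it for 3 (31.2%). The median log2 fold change of the members was 0.70, beside -0.0053 for all genes tested. All 39 passed the filter on low values, Pmaip1 only through its KO libraries. The medians of the 3 KO libraries, each taken over the 39 genes against the mean of the Scr libraries, were 0.74, 0.74 and 0.82, and those of the Scr libraries lay between -0.027 and 0.049.

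**Figure D1:**
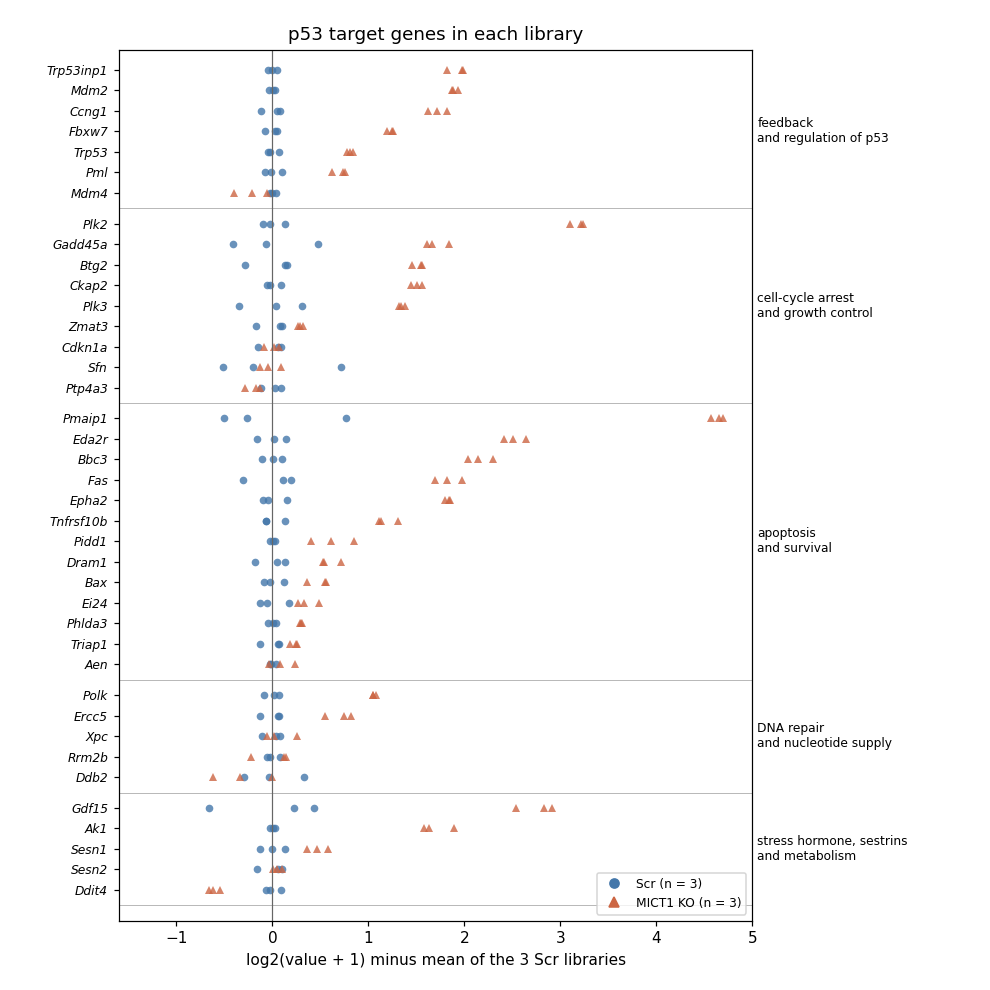
Each point is 1 library, placed by its log2(value + 1) minus the mean of the 3 Scr libraries (x axis), for the 39 p53 target genes grouped by role (y axis). Circles are Scr and triangles MICT1 KO libraries. The 3 KO libraries lie to the right of the Scr libraries for 29 genes and to the left for 3 (Mdm4, Ptp4a3 and Ddit4).

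The genes of p53 and of the loop that holds it in check were all called, 6 of 7 as higher. Of all genes tested, 56.9% were called, 28.5% as higher. Trp53 (chromosome 11, 69580348 to 69591873) had values of 1853, 1882 and 2015 in the Scr and 3419.8, 3352 and 3290.0 in the KO libraries (by limma-trend, log2 fold change 0.81, standard error 0.058, adjusted p = 1.69e-10). The KO libraries thus held 1.75 times the Trp53 mRNA of the Scr libraries, without overlap. Mdm2 (chromosome 10, 117688875 to 117710758), the ubiquitin ligase that destroys p53, stood at 3551, 3622 and 3469 in the Scr and 13519, 13043 and 12972 in the KO libraries (1.89, standard error 0.051, adjusted p = 2.41e-17). It was the most abundant transcript of the group per length, at 42.6 RPKM (reads per kilobase of exon, scaled to depth) in Scr and 159 in KO libraries, which moved it from rank 1252 to rank 234 of the 12400 tested genes with a known exon length. Its relative Mdm4 moved the other way, with values of 1526, 1593 and 1552 in the Scr and 1177, 1499 and 1342 in the KO libraries (-0.22, standard error 0.077, adjusted p = 0.0176). The 3 KO values of Mdm4 were spread more widely than the Scr values, and KO replicate 2 lay close to the lowest of them. Its call did not hold without control replicate 2 (-0.21, adjusted p = 0.0684) or without KO replicate 1 (-0.13, adjusted p = 0.122).

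Ccng1, which encodes cyclin G1, a partner of the phosphatase that acts on Mdm2, rose from 1321, 1154 and 1294 in Scr to 4131, 3854 and 4419.9 in KO libraries (1.72, standard error 0.067, adjusted p = 7.91e-15). Trp53inp1, whose product helps p53 to turn on apoptosis and also takes part in autophagy, rose by as much, from 679, 706 and 663 to 2411, 2704 and 2692 (1.93, standard error 0.069, adjusted p = 1.85e-15). For both genes every KO library was more than 2-fold above every Scr library. Fbxw7, the substrate receptor of a ubiquitin ligase for cyclin E and Myc, was at 394, 422 and 430.4 in the Scr and 983, 990.4 and 951 in the KO libraries (1.23, standard error 0.084, adjusted p = 7.17e-11). Pml, the scaffold of nuclear bodies in which p53 is modified and also an interferon-induced gene, had a log2 fold change of 0.70 (adjusted p = 3.04e-07), with Scr values up to 623 and KO values from 895.

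**Figure D2:**
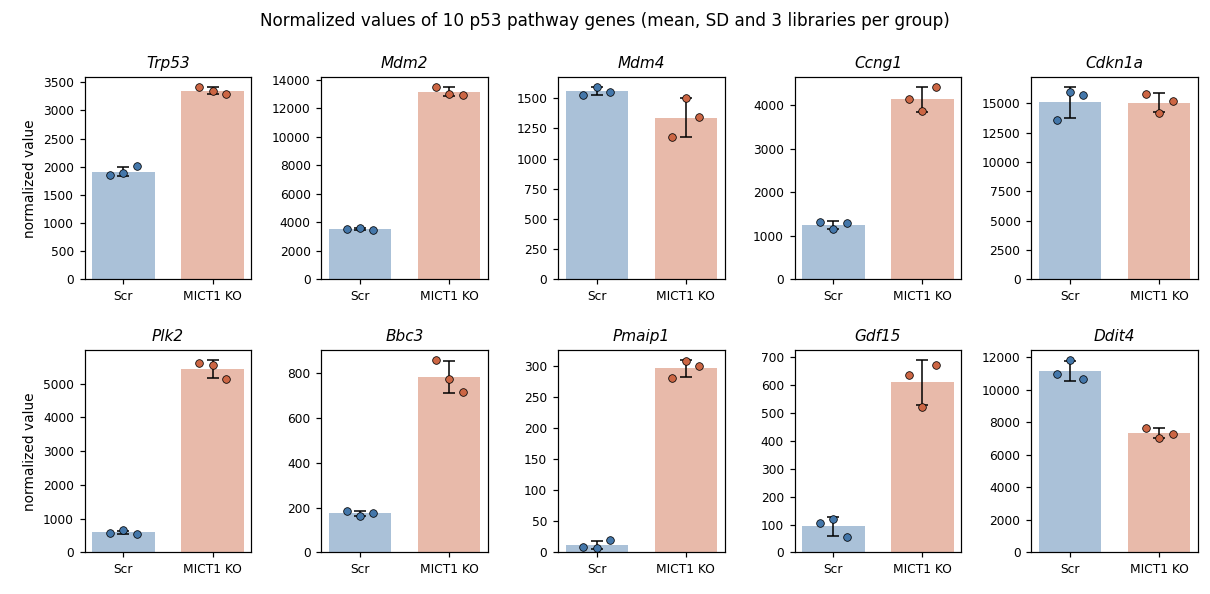
Normalized values (y axes, from 0) of 10 genes of the p53 pathway in the 3 Scr and 3 MICT1 KO libraries. Bars give the mean, error bars the SD and points the libraries. Mdm2 was 3547 ± 76.5 in Scr and 13178 ± 298 in KO, whereas Cdkn1a was 15068 ± 1325 and 15056 ± 819.

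Among the genes of cell-cycle arrest and growth control, the best known p53 target did not pass. Cdkn1a (chromosome 17, 29090979 to 29100722), which encodes p21, had values of 13549, 15990.1 and 15664 in the Scr and 15778, 14166 and 15226 in the KO libraries, and the groups overlapped throughout. The log2 fold change came to 0.0013 (standard error 0.063, adjusted p = 0.988), with a 95% confidence interval of -0.13 to 0.13. Per length it was already among the most abundant transcripts of these cells, at 259 RPKM and rank 120 in Scr and 259.6 RPKM and rank 140 in KO libraries. Of all the members only Ddit4 stood above it in Scr.

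Of the other 8 arrest genes, 6 were higher, by between 0.29 and 3.18 on the log2 scale. Plk2, a polo-like kinase induced by p53 and by growth signals, showed the largest rise in this group, from 588, 654 and 558 in Scr to 5626, 5564 and 5142 in KO libraries (3.18, standard error 0.068, adjusted p = 6.39e-19). That is a 9.08-fold difference of the means, and the lowest KO value was far above the highest Scr value. Its relative Plk3, another stress-responsive kinase, was at 314, 381 and 241 in the Scr and 799.9, 765 and 779 in the KO libraries (1.35, standard error 0.12, adjusted p = 8.85e-09). The rise of Plk3 was smaller, and its Scr libraries were the more variable. Gadd45a, which inhibits the Cdk1 kinase and assists in repair and demethylation, had values of 126, 232 and 159.7 in the Scr and 602, 511 and 529.7 in the KO libraries (1.70, standard error 0.16, adjusted p = 1.48e-08). The reads of Gadd45a are uncertain, since an antisense transcript covers 19.1% of its exon bases, its value came to whole reads within a tolerance of 0.05 in only 2 of 6 libraries, and the use of strand in counting was not given in the sources used here. Btg2, an antiproliferative gene that is also an early-response gene, rose from 1551, 1526 and 1144 to 4095, 4081 and 3811 (1.52, standard error 0.086, adjusted p = 3.28e-12).

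Ckap2, a spindle-associated protein that is also abundant in dividing cells, was at 1499, 1380.3 and 1350.3 in the Scr and 4001, 3828 and 4164 in the KO libraries (1.5, standard error 0.061, adjusted p = 1.54e-14). Zmat3, an RNA-binding protein, passed with a small change (0.29, adjusted p = 0.00378; between 0.20 and 0.34 with each library left out). Ptp4a3, a phosphatase of growth control, had a log2 fold change of -0.19 (adjusted p = 0.124). Sfn, the 14-3-3σ gene, which is characteristic of epithelia, was barely present in either group, at 21.8, 41.7 and 17.3 in the Scr and 26.7, 24.2 and 22.8 in the KO libraries, with a 95% confidence interval of its log2 fold change from -0.85 to 0.78. A change smaller than that interval was not detectable at so few reads. The median log2 fold change of the 9 arrest genes was 1.35, with 6 higher, where 28.5% of all genes were, and 3 not called.

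The apoptosis and survival genes held the steepest rise of the list. Pmaip1 (chromosome 18, 66458604 to 66465558), which encodes the BH3-only protein Noxa, had values of 8.9, 7.42 and 19.3 in the Scr and 281, 308 and 299.6 in the KO libraries (4.64, standard error 0.30, adjusted p = 2.56e-11). It was near the lower end of what these libraries can measure in Scr cells, at 0.266 RPKM, and reached 6.64 RPKM in KO cells. The size of its fold change moved with the pseudocount, from 4.22 with 5 to 4.70 with 0.5 in place of 1. Bbc3, the gene of the BH3-only protein Puma, stood at 187, 161 and 174 in the Scr and 859, 772 and 715 in the KO libraries (2.16, standard error 0.11, adjusted p = 7.57e-13). Both of these genes encode proteins that free Bax from its inhibitors, and Bax itself, the pore-forming protein of the mitochondrial outer membrane, rose far less, from 663, 764 and 689.9 to 1038, 904 and 1030.3 (0.49, standard error 0.083, adjusted p = 4.06e-05). A second gene model on the same strand shares 12.2% of the exon bases of Bax.

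The list holds 3 receptors of the tumour necrosis factor receptor family, and all were higher. Eda2r, the receptor of ectodysplasin A2, which lacks a death domain, was at 78.1, 88.1 and 96.7 in the Scr and 501, 469 and 549 in the KO libraries (2.52, standard error 0.14, adjusted p = 3.02e-12). Fas, the death receptor for Fas ligand, was at 72.2, 76.9 and 53.9 in the Scr and 218, 238 and 266 in the KO libraries (1.83, standard error 0.18, adjusted p = 3.53e-08). Tnfrsf10b, which encodes the only mouse receptor for Trail that carries a death domain, rose from 316, 362 and 313 to 819, 713 and 725 (1.19, standard error 0.099, adjusted p = 1.87e-09). The KO and Scr libraries were well apart for the 3 receptors, with Eda2r the furthest. Epha2, a receptor tyrosine kinase of ephrins, was at 561, 667 and 581 in the Scr and 2151, 2169 and 2087 in the KO libraries (1.83, standard error 0.075, adjusted p = 1.71e-14).

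The remaining genes of cell death moved less. Pidd1, the scaffold that activates caspase-2, had a log2 fold change of 0.62 (adjusted p = 5.2e-05) and Dram1, a lysosomal protein of autophagy, one of 0.60 (adjusted p = 1.81e-06). Ei24, a membrane protein of the endoplasmic reticulum, and Phlda3, which blocks the membrane recruitment of Akt, rose by 0.36 (adjusted p = 0.000598) and 0.30 (adjusted p = 0.000333). Triap1, a small inhibitor of apoptosis, had KO values of 516, 489 and 509 above its Scr values of 395, 451 and 448, with a log2 fold change of 0.23 and an adjusted p of 0.0509 that did not pass. It passed with library-size scaling (0.23, adjusted p = 0.0454), with trimmed-mean (TMM) scaling (0.23, adjusted p = 0.046) and among genes with a maximum RPKM of at least 4 (0.23, adjusted p = 0.0474). Aen, an exonuclease that degrades DNA in dying cells, overlapped between the groups (0.092, adjusted p = 0.248, 95% confidence interval -0.046 to 0.23). Of the 13 genes of this group in the table, 11 were higher, where 28.5% of all genes were, and 2 did not pass. The median of the 13 was 0.62 on the log2 scale.

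**Figure D3:**
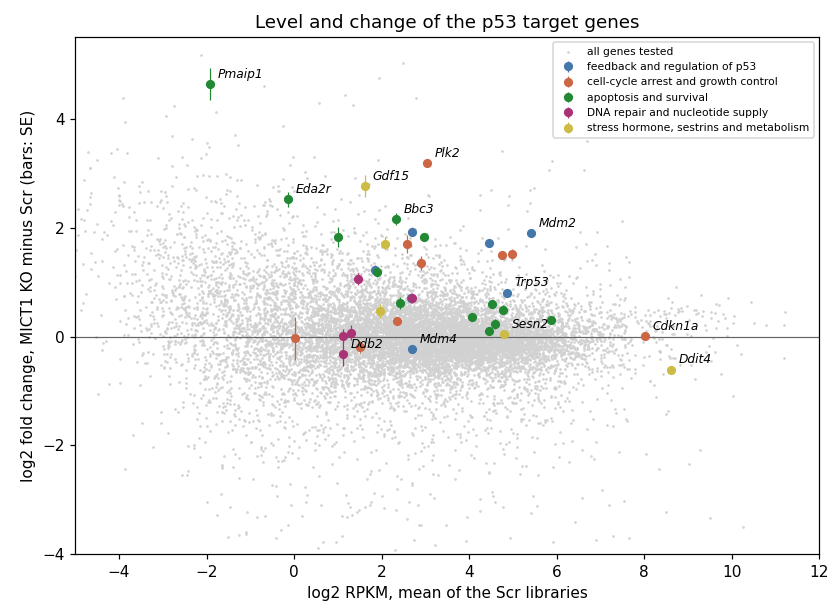
Log2 fold change of MICT1 KO over Scr (y axis, bars give the standard error) against the mean log2 RPKM of the Scr libraries (x axis) for the p53 target genes, coloured by role, over all genes tested in grey; the few grey genes outside the axes are not drawn. The most abundant members, Ddit4 and Cdkn1a, lie at -0.61 and 0.0013, and Pmaip1, the member with the fewest reads per length in Scr, at 4.64.

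Of the 5 DNA repair genes, 2 were higher, where 28.5% of all genes were, and 3 were not called. Their median log2 fold change was 0.072. The median was 0.88 with a maximum RPKM of at least 4, which leaves only Polk and Ercc5 in this group. Polk reached that level only in its KO libraries (2.74 RPKM in Scr and 5.73 in KO), so nothing is read from that median. Polk, a DNA polymerase that copies across damaged bases, rose from 234, 260.5 and 252 in Scr to 517, 516 and 526 in KO libraries (1.06, standard error 0.11, adjusted p = 2.91e-08). Ercc5, the endonuclease that cuts on the 3′ side of a lesion in nucleotide excision repair, was at 649, 657 and 572 in the Scr and 914, 1046 and 1104 in the KO libraries (0.70, standard error 0.088, adjusted p = 7.21e-07). The damage-recognition genes of the same pathway were not called. Ddb2 had values of 92.8, 77.5 and 119 in the Scr and 61.7, 95.03 and 75.2 in the KO libraries (-0.32, standard error 0.23, adjusted p = 0.253) and Xpc of 207, 235 and 228 in the Scr and 215, 225 and 265 in the KO libraries (0.072, standard error 0.14, adjusted p = 0.676), with overlap in both. The reads of Ddb2 are uncertain, since Acp2 on the opposite strand covers 23.8% of its exon bases, and in none of the 6 libraries did its value come to whole reads within a tolerance of 0.05. Rrm2b, the p53-induced subunit of ribonucleotide reductase, was at 311, 342 and 317 in the Scr and 276, 357 and 352 in the KO libraries, with a 95% confidence interval of its log2 fold change of -0.24 to 0.27.

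The secreted and metabolic members split. Gdf15, a stress hormone that curbs appetite, had values of 104, 121 and 55.97 in the Scr and 638, 520.5 and 675 in the KO libraries (2.76, standard error 0.20, adjusted p = 2.31e-10). The Scr libraries differed among themselves, control replicate 3 being the lowest, and every KO library was more than 4-fold above the highest of them. Ak1, the cytosolic adenylate kinase, rose from 182, 175 and 179 to 666, 534 and 558 (1.70, standard error 0.12, adjusted p = 9.23e-11). Of the sestrins, which restrain mTORC1 when amino acids are short, Sesn1 rose slightly, from 252, 231 and 277 to 349.9, 377 and 323 (0.47, standard error 0.12, adjusted p = 0.00259). Sesn2 overlapped between the groups, with values of 1415, 1693 and 1636 in the Scr and 1688, 1589 and 1629 in the KO libraries and a 95% confidence interval of -0.095 to 0.20. Ddit4, or Redd1, another brake on mTORC1 that also answers to glucocorticoids, low oxygen and the integrated stress response, was the only member besides Mdm4 to be called lower. It fell from 11004, 11849.7 and 10666 in Scr to 7665, 7061 and 7288 in KO libraries (-0.61, standard error 0.055, adjusted p = 7.24e-09), and from rank 66 to rank 143 per length.

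Genes that act on p53 without belonging to the list were called in both directions, 10 higher and 11 lower of 25 tested. Their median log2 fold change was -0.12, and of all genes tested 28.5% were higher and 28.3% lower. The damage-signalling kinase genes were all lower, namely Atm (-0.38), Atr (-0.79), Chek1 (-0.29), Chek2 (-0.48) and Prkdc (-0.40), with adjusted p from 4.24e-07 to 0.01. The call of Chek1 did not hold without control replicate 2 (-0.24, adjusted p = 0.0506), nor that of Chek2 without KO replicate 2 (-0.31, adjusted p = 0.0745). Hipk2, a kinase that directs p53 towards apoptosis, fell from 1149, 1119.5 and 1339 to 445, 589 and 633 (-1.12, standard error 0.11, adjusted p = 1.49e-08). The largest fall was that of Trp63, a p53 relative of epithelia, from 129.6, 94.6 and 124 to 28.6, 12.6 and 34.2 (-2.26, standard error 0.32, adjusted p = 4.17e-06), and Trp73 was not analysed here. The largest rise was that of Trp53bp2 (0.51, adjusted p = 5.02e-05), whose product helps p53 choose apoptotic targets. Of its relatives, Ppp1r13b was called lower (-0.50, adjusted p = 0.00191) and Ppp1r13l higher (0.45, adjusted p = 0.000202).

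Cdkn2a, the locus of the Mdm2 inhibitor p19Arf and of p16Ink4a, was abundant in both groups, at 151 RPKM in Scr and 199 in KO cells, and its values were 2937, 3028 and 2745 in the Scr and 3969.8, 3618 and 3832 in the KO libraries (0.39, standard error 0.059, adjusted p = 8.38e-06). A value per gene does not tell its 2 products apart. Rpl5 (0.19), Rpl11 (0.36) and Npm1 (0.20), whose products can bind Mdm2, were slightly higher, with adjusted p from 1.81e-05 to 0.00745. Ppm1d, a phosphatase that is itself induced by p53 and switches it off, was at 541, 632 and 619 in the Scr and 834, 850.3 and 770.2 in the KO libraries (0.46, standard error 0.087, adjusted p = 0.00014).

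A second list of genes known as p53 targets, which holds no member, was likewise chosen with earlier results of these data known. Of 32 tested, 19 were called higher, where 28.5% of all genes were, and 2 lower (28.3%). The median log2 fold change was 0.54, and these counts are a description only. The largest rise was that of Lif, a cytokine, from 1471, 1671 and 1684 to 10281, 11121 and 9892 (2.70, standard error 0.063, adjusted p = 1.96e-18). Thbs1 (2.42), Ddit4l (2.30), Cpt1c (2.08), Psrc1 (1.88), Gtse1 (1.53), Tap1 (1.49) and Cdc42bpg (1.38) were also at least 2-fold higher. Rps27l, a ribosomal protein relative that can share reads with Rps27, rose by 0.46 (adjusted p = 4.66e-05). Several of these genes answer to other signals too, Tap1 to interferon and Lif and Thbs1 to growth factors. The lower genes were Btg1 (-0.52, adjusted p = 4.41e-08) and Dglucy (-0.84, adjusted p = 0.0317), whose values were 47.5, 44.5 and 47.8 in the Scr and 25.7, 18.97 and 34.2 in the KO libraries. The call of Dglucy did not hold without control replicate 1 (-0.83, adjusted p = 0.0767), control replicate 2 (-0.87, adjusted p = 0.0621), control replicate 3 (-0.82, adjusted p = 0.0769), KO replicate 1 (-0.84, adjusted p = 0.0538) or KO replicate 2 (-0.63, adjusted p = 0.122).

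Cdkn1a acts through the DREAM complex, which represses cell-cycle genes, and a list of 30 genes of that kind or of the complex was measured beside it. Of these, 18 were higher in KO cells, where 28.5% of all genes were, and 9 lower (28.3%). Their median log2 fold change was 0.74. The genes called higher act in mitosis or lead to it, among them Kif23, with the largest rise (1.29, adjusted p = 1.24e-11), Cenpe (1.22), Bub1b (1.15), Ccnb2 (0.96), Foxm1 (0.87) and Mki67 (0.86). The genes called lower were Mybl2, with the largest fall (-0.61, adjusted p = 9.3e-09), E2f1, Ccne2, Mcm2, Mcm3, Mcm5, Cdc6, Lin9 and Rbl1, most of which act in or before DNA replication. Lin9 was not called without control replicate 1 (-0.19, adjusted p = 0.0927). Among the other cyclin-dependent kinase inhibitors, Cdkn1c, the imprinted gene of p57, fell from 292, 322 and 314 in Scr to 20.02, 13.7 and 32.1 in KO libraries (-3.84, standard error 0.26, adjusted p = 5.29e-11). Cdkn2b (0.83), Cdkn2c (0.42) and Cdkn2d (0.85) rose, with adjusted p from 1.15e-06 to 4.09e-06. Cdkn1b was called lower (-0.14, adjusted p = 0.0449), but not with library-size scaling (-0.14, adjusted p = 0.0506), with trimmed-mean (TMM) scaling (-0.14, adjusted p = 0.051) or without control replicate 2 (-0.12, adjusted p = 0.16), control replicate 3 (-0.14, adjusted p = 0.092) or KO replicate 1 (-0.10, adjusted p = 0.171).

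Gdf15, Sesn2, Ddit4, Bbc3, Pmaip1 and Tnfrsf10b are also known targets of Atf4 or Chop, the transcription factors of the integrated stress response, and the genes of that response were therefore set beside them. Of 16 listed, 10 were higher, where 28.5% of all genes were, and 3 lower (28.3%). Their median log2 fold change was 0.29. Atf4 was at 6456, 6570.0 and 5396 in the Scr and 7159.6, 6652 and 6833 in the KO libraries (0.17, standard error 0.065, adjusted p = 0.0326) and Ddit3, the Chop gene, at 590.5, 588 and 345 in the Scr and 717, 608 and 644 in the KO libraries (0.41, standard error 0.15, adjusted p = 0.0214). Atf3 rose most, from 579, 662 and 292 to 2239, 1902 and 1798 (2.03, standard error 0.18, adjusted p = 5.26e-09), and Vldlr fell most (-0.81, adjusted p = 1.15e-06). The other genes called higher were Ppp1r15a (1.02), Slc7a11 (0.85), Phgdh (0.67), Atf5 (0.52), Psat1 (0.52), Asns (0.38) and Shmt2 (0.19), with adjusted p from 1.08e-09 to 0.0048. Cebpb was also called lower (-0.45, adjusted p = 4.42e-07). Trib3 (-0.094, adjusted p = 0.508), a Chop target, was not called. Control replicate 3 had the lowest Scr value of Atf3, Ddit3, Atf4 and Trib3, as of Gdf15, Plk3, Btg2 and Fas among the members. Over all 39 members it was the lowest Scr library for 16, control replicate 1 for 15 and control replicate 2 for 8. Without control replicate 3, neither Atf4 (0.079, adjusted p = 0.27) nor Ddit3 (0.15, adjusted p = 0.208) was called and Trib3 was called lower (-0.29, adjusted p = 0.0102). Atf4 was also not called without KO replicate 1 (0.14, adjusted p = 0.089) or KO replicate 3 (0.17, adjusted p = 0.063), nor Ddit3 without KO replicate 1 (0.34, adjusted p = 0.0683). Chac1 was called lower (-0.45, adjusted p = 0.0435), but not with library-size scaling (-0.44, adjusted p = 0.0513) or without control replicate 1 (-0.38, adjusted p = 0.147), control replicate 2 (-0.29, adjusted p = 0.252), KO replicate 1 (-0.40, adjusted p = 0.099) or KO replicate 2 (-0.37, adjusted p = 0.132). The part of the integrated stress response in the values of the shared genes was not tested.

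**Figure D4:**
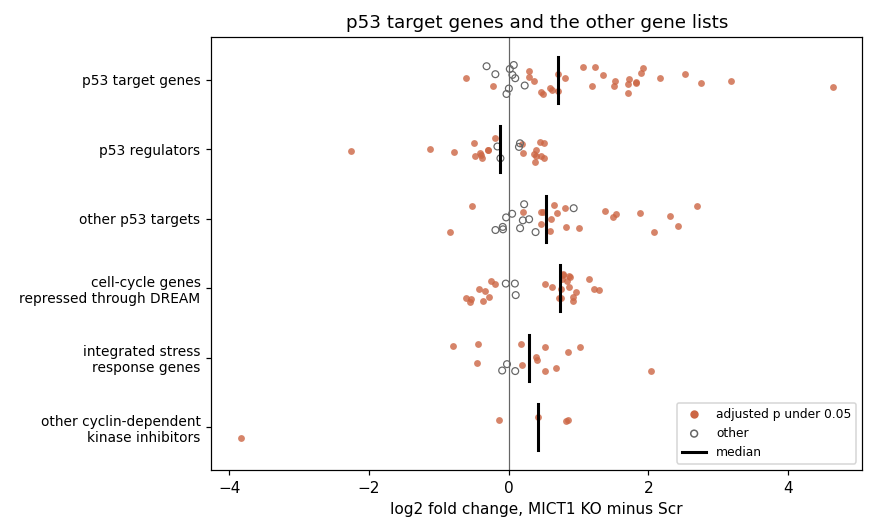
Log2 fold change of MICT1 KO over Scr (x axis) of each tested gene of the p53 target list and of 5 other lists (y axis, points spread vertically for legibility). Filled points have an adjusted p under 0.05 and bars mark the medians, which are 0.70 for the p53 targets, -0.12 for the p53 regulators, 0.54 for the other p53 targets, 0.74 for the cell-cycle genes, 0.29 for the integrated stress response and 0.42 for the other kinase inhibitors.

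By the criteria given in the methods, a maximum RPKM of at least 4, a change of at least 1.8-fold and an unadjusted p under 0.05, 34 members reached the level and 18 of these also reached the fold and the p, each of them higher in KO cells. Of the 8501 tested genes at that level, 6.93% met the same criteria as higher and 6.07% as lower, and since the members were chosen on this comparison nothing is read from their count.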

How the data were processed

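RNA-seq was done on 3 Scr and 3 MICT1 KO libraries. Per the labels and the methods, the authors prepared RNA with a column kit and aligned reads to the mouse genome (GRCm38, mm10) in Partek. The submitters' notes name Partek, STAR and DESeq2, with no role or version. The methods give a stranded total-RNA kit, the labels a sequencing provider, and whether counting used strand is not given in the sources used here. The authors deposited 1 table of normalized signal for 13283 genes. From its low values each value was taken as an estimate of reads after division by a size factor of 0.949 to 1.08 per library. Between 88.8% and 90.3% of the values under 20 came to whole reads within a tolerance narrower than 0.05, which was taken as too few to use a count test. Each listed gene was above 0 in every library, so undetected genes are missing.

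From these values log2(value + 1) was fitted with limma 3.58.1 (limma-trend, R 4.3.3) over the 12507 genes that reached 10 in 3 or more libraries, KO against Scr without a block. P-values were adjusted by the Benjamini-Hochberg method over all of them, two-sided, with a threshold of 0.05. Columns were matched to samples by the control or KO group and number in their names. RPKM was computed over the union of GENCODE vM21 exons. On simulated data with 200 changed genes among 12414, the test recovered 200 and called 13 others. The changed genes lay well above the filter on low values and differed by at least 2-fold, so smaller changes and low values were not tried.

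The members and all gene lists were chosen with earlier results of these data known. Values in every library are given for Trp53, Mdm2, Mdm4, Cdkn1a, Bax, Bbc3, Pmaip1, Ddb2, Xpc and Gdf15, for members that passed with at least a 2-fold change and for the largest called rise and fall of each role group, and further members are shown where a sentence needs them. Alternatives were other scalings, pseudocounts of 0.5 and 5, other filters, limma-voom weights, a replicate block and each library left out in turn. Others were added after seeing the data, namely counts of the other lists and promoter matches with 1 window per gene. Promoter windows came from RefSeq (GRCm38.p6).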

Additional observations from a re-analysis of the deposited data

How the results depend on the processing

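The number of members called higher was 28 or 29 in every alternative. Of 541 alternative values of single members 536 kept their side of the threshold, and direction changed only for members not called in either fit, such as Cdkn1a and Sfn. With a maximum RPKM of at least 4, 34 members were tested and 1 of the other p53 targets was lower. The median log2 fold change was then 1.12 over the members, 1.5 over the arrest genes and 0.88 over the repair genes. That filter takes the highest library of either group, so Pmaip1, Eda2r, Fas and Polk passed through their KO libraries only. Sfn, Ptp4a3, Ddb2, Xpc and Rrm2b, none of them called, dropped out, so nothing is read from these higher medians. With library-size scaling and with the trimmed mean of M values, 1 of the other kinase inhibitors was lower. When single libraries were left out, 1 to 2 members were lower (Mdm4 lost its call), and the median was 0.66 to 0.78 over the members, 1.19 to 1.26 over the feedback genes, 1.17 to 1.49 over the arrest genes, 0.54 to 0.73 over the apoptosis genes, -0.018 to 0.13 over the repair genes and 0.40 to 0.53 over the stress and metabolic genes. Likewise 1 to 2 of the other p53 targets and 1 to 2 of the other kinase inhibitors were lower, and 8 to 10 integrated stress response genes were higher and 2 to 4 lower.

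Replicate numbers did not pair the libraries, since the deviations of same-numbered libraries correlated at -0.0236, -0.0155 and 0.0637. With the replicate block, 28 members were higher and 2 lower, and 3543 genes in all were higher and 3512 lower, against 3569 and 3544 without it. Precision is limited by 3 libraries per group and by 15450000 to 17920000 reads each. Low values in at least 1 group limit it further for genes such as Sfn, Pmaip1, Dglucy, Adipoq, Ucp1, Trp63, Cdkn1c and Ddit4l.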
